A study of Rattus norvegicus with 2 samples.

Results

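Interferon signalling and antigen presentation were followed through 38 genes, the receptors, kinases and transcription factors of the interferon pathway, the antiviral proteins it induces, and the machinery that loads peptides onto major histocompatibility complex (MHC) molecules. The genes were taken from a fixed list, and each was read from the probe set that names it alone in the platform table and has the highest mean signal of both arrays. Of the 38 genes 37 had such a probe set, with 56 probe sets in all, out of 14218 genes named on the array. Gbp5 had none and was not analysed here. A gene counted as measured where its mean signal lay above a floor of 62.0, the 40th percentile of both arrays pooled, which held for 28 of the 37 members and 10255 of all genes.

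The cells were astrocytes cultured from the hippocampus of Sprague-Dawley rat embryos of day 18, with the genotype given as normal. The control culture expressed IRES2-RFP, a red fluorescent protein vector, and the 5ppase culture expressed 5ppase-IRES2-RFP, written 55ppase-IRES-RFP in the transfection field. Both cultures therefore carried a fluorescent vector, and the labels state neither the share of cells that took it up nor the number of embryos. The series compares cells that signal through calcium (control) with cells that do not (5ppase), with 1 array per group and 31099 probe sets on each, so every value below describes these 2 arrays, carries no p-value and has no replicate check.

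Interferons are secreted proteins that warn cells of infection. Type I interferons bind the receptor chains Ifnar1 and Ifnar2, and interferon gamma binds Ifngr1 and Ifngr2. The kinases Jak1, Jak2 and Tyk2 then activate STAT proteins. A complex that holds Stat2 and Irf9 binds the interferon-stimulated response element (ISRE) of antiviral genes, and the interferon gamma response acts through the gamma-activated sequence (GAS). Astrocytes respond to both kinds of interferon and can raise MHC molecules and antiviral proteins when exposed to them.

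The members' promoters were read in windows of 250 bases before and 50 after the annotated start, credited to RefSeq (GRCr8), which held 30 of the 38 members and lacked Jak1, Tyk2, Usp18, Isg15, Ifit2, Mx2, Adar and Ciita. On both strands 18 of the 30 windows matched the ISRE core GAAANNGAAA and 8 matched the GAS core TTCNNNGAA, beside 3.92% and 8.87% of all 33469 windows, and 2.99% and 6.99% of the 11734 windows of genes named on the array. The ISRE core was found at Irf7, Socs1, Ifit3, Oas1a, Rsad2, Ifi27, Ifih1, Eif2ak2, Bst2, Parp14, Gbp2, Gbp5, Psmb8, Psmb10, Tap1, Tap2, Tapbp and B2m. The GAS core was found at Ifnar2, Irf1, Irf9, Socs1, Oas1a, Bst2, Parp14 and Psmb8. The GAS core is its own reverse complement, and in Bst2 its match overlaps the ISRE. A match describes these letters and is not a shown binding site. The stretches below, 5′ to 3′ in the direction of transcription with the ISRE match in capitals (for Irf1 the GAS match), come from the members past 1.5-fold that have a window (Ifi27, Bst2), a transcription factor (Irf7), an antiviral gene that stayed under the floor (Oas1a), class I presentation genes (B2m, Tap1) and the GAS of Irf1. All lie before the annotated start.
Ifi27: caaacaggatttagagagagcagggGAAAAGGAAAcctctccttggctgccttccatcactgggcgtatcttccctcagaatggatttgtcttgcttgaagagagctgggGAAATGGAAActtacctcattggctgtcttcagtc
Bst2: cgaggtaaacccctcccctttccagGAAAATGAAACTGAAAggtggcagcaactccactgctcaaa
Irf7: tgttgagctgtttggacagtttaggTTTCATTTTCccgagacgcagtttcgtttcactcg
Oas1a: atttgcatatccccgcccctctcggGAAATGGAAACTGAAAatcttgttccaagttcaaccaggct
B2m: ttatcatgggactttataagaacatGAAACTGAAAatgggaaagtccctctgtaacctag
Tap1: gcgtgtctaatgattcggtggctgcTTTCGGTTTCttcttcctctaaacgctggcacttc
Irf1: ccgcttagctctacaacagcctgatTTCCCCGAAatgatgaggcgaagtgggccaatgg

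In GRCr8 the Ifi27 stretch is chr6:128355118-128355262 on the plus strand, with matches that begin 169 and 84 bases before the start. The Bst2 stretch is chr16:18255058-18255123 on the minus strand and holds overlapping matches at 131 and 125 bases. The Oas1a stretch (chr12:41330400-41330465, plus strand) likewise holds overlapping matches, at 41 and 35 bases. The Irf7 match (chr1:205800058-205800117, minus strand) begins 69 bases and the Tap1 match (chr20:4668630-4668689, minus strand) 121 bases before the start, and both read as the reverse complement of the core. The B2m match (chr3:129549155-129549214, plus strand) begins 150 bases before the start and the GAS of Irf1 (chr10:38417768-38417826, plus strand) 142 bases before it.

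Most of the interferon and antigen presentation genes had nearly the same signal on both arrays. Of the 28 measured members 25 lay within 1.5-fold, 2 were at least 1.5-fold higher in 5ppase (Ifi27 and Bst2) and 1 was at least 1.5-fold lower (Usp18). Of all measured genes 85.6% lay within 1.5-fold, 7.48% were at least that much higher and 6.87% at least that much lower. The members' shares past 1.5-fold, 7.14% and 3.57%, were thus near or under the background. All ratios are 5ppase over control on the log2 scale, and their median was 0.068 over the members and -0.012 over all measured genes. Positive ratios were found for 17 members (60.7%) and negative ones for 11, beside 48.6% positive over all measured genes. The counts were 16 and 12 under a common median and 18 and 10 under quantile normalization or after a loess trend was removed. The only internal repeat is a second probe set of a gene. Compared in this way over the 2714 genes with at least 2 measured probe sets, a single log2 ratio had an SD of 0.30, a figure that holds the noise of probes and hybridisation but none of the variation from culture to culture. Of the members 20 of 28 (71.4%) lay within that SD of 0, beside 62.3% of all measured genes. In 10 members a second probe set was measured, and in 5 of them it had the sign of the first.

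**Figure D1:**
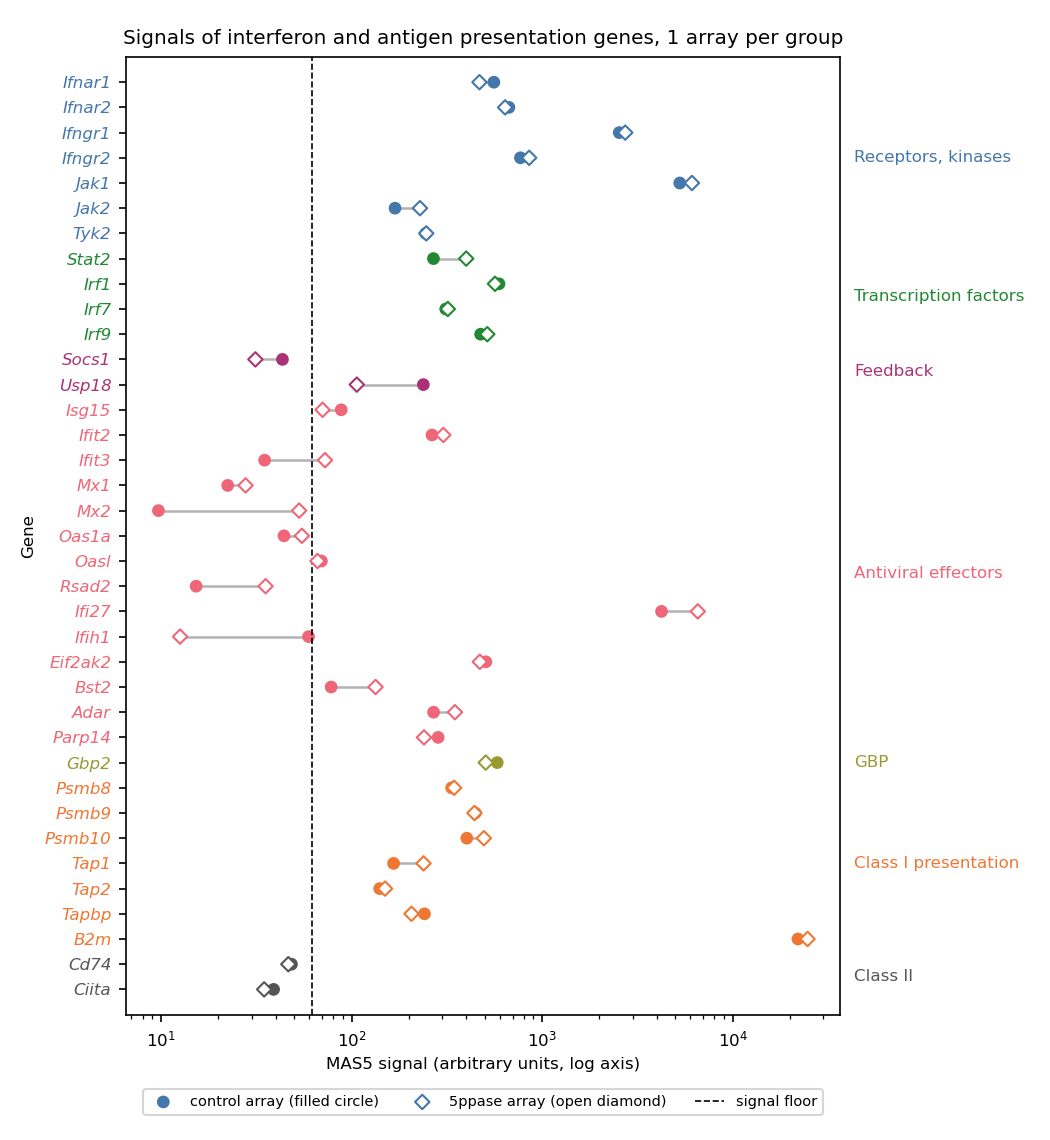
MAS5 signal (arbitrary units, log axis) of the 37 genes with a probe set, grouped by role; filled circles are the control array, open diamonds the 5ppase array and the dashed line the floor of 62.0. In 28 genes both arrays lie above the floor, in 1 (Ifit3) only the 5ppase array does, and in 8 neither does.

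The receptors were present on both arrays at like signals. Ifnar1, the chain that Tyk2 attaches to, gave 559 on the control and 469 on the 5ppase array, a log2 ratio of -0.25. Its other 5 probe sets gave ratios from -0.18 to 0.31, 3 positive and 2 negative, so the 6 probe sets show no common direction. Ifnar2, the partner chain, gave 670 and 640 (-0.067), and 332 and 378 (0.19) at its second probe set. Ifngr1, the ligand-binding chain for interferon gamma, gave 2543 and 2733 (0.10). Ifngr2, its signalling partner, gave 770 and 856 (0.15), and its other probe set had a ratio of 0.43. None of the 4 receptor genes reached 1.5-fold at any measured probe set, and 85.6% of all measured genes lay within 1.5-fold.

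The kinases were also within 1.5-fold, as were 85.6% of all measured genes. Jak1, which serves both receptor types, gave 5283 and 6119 (log2 ratio 0.21), and its second probe set gave 1204 and 1394, again 0.21. Jak2, which serves the interferon gamma receptor, gave 169 and 229 (0.43). Tyk2 gave 245.2 and 246.8 (0.0094), a ratio that turned negative under a common median. Over the 7 receptor and kinase genes the median was 0.10, from -0.25 to 0.43. Of the 10 members with at least 2 measured probe sets, Jak1 was the one whose ratios repeated most closely.

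Among the transcription factors Stat2 stood closest to the threshold. Its brightest probe set read 269 in control cells and 400 in 5ppase cells, a log2 ratio of 0.57 that lies just inside 1.5-fold, and was past it under quantile normalization and after loess. Its second probe set gave 191 and 180 (-0.085), so the higher signal was not repeated. Irf9, which completes the ISRE-binding complex, gave 476 and 516 (0.12), whereas the other probe set gave 327 and 269 (-0.28). Irf1, an early interferon gamma target with the GAS shown above, gave 594 and 566 (-0.069). Irf7, which amplifies type I interferon responses, gave 312.5 and 320.2 (0.035). Irf1 and Irf7, themselves interferon-induced, were thus at almost equal signals on both arrays.

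Usp18 had the largest ratio of the measured members. It encodes a protease that removes Isg15 from proteins and holds back signalling at Ifnar2. Usp18 gave 238 in control and 107 in 5ppase, a log2 ratio of -1.16 or 2.24-fold lower, at its only probe set, 1389034_at. Of the 2282 measured genes with a mean signal under 208, the pooled 60th percentile, 2.45% had a ratio as low. Socs1, an inhibitor of the Janus kinases whose promoter window holds overlapping ISRE matches, stayed below the floor in both cultures (43.4 and 31.3).

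The antiviral genes lay on both sides of the floor. Of 14 such genes 8 were measured, beside 10255 of the 14218 genes named on the array. Ifit3 was above the floor on the 5ppase array alone (35.0 and 72.6), and the remaining 5 were under it on both. The floor is a chosen cut, and with it at the 25th percentile 35 of the 37 members counted as measured. These 5 were the GTPases Mx1 (22.4 and 27.8) and Mx2 (9.7 and 53.1), the oligoadenylate synthetase Oas1a (44.2 and 54.9), the radical enzyme Rsad2 (15.3 and 35.4) and the RNA sensor Ifih1 (59.5 and 12.6). Signals under the floor give no order between the arrays, and the other probe set of Mx2 was lower in 5ppase (11.9 and 1.9). Mx1, Oas1a and Rsad2 are strongly induced in cells exposed to interferon, and none gave a signal above the floor on either array. By contrast Ifi27, Isg15, Ifit2 and Bst2, from the same list, were above it on both. Whether the cultures responded to interferon was not tested.

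Ifi27, a small membrane protein induced by type I interferon, gave 4238 with the control vector and 6569 with 5ppase, a log2 ratio of 0.63 or 1.55-fold. It has 1 probe set (1387770_at), and 4.0% of the 7973 measured genes at or over the 60th percentile of signal had a ratio as high. Bst2, known as tetherin, which ties budding virus to the cell surface, gave 78.2 and 133.7 (0.77, 1.71-fold), also at a single probe set (1390738_at). Bst2 belonged to the dim genes under the 60th percentile, of which 11.0% had a ratio as high. Neither gene reached 2-fold, which 2.14% of all measured genes did in that direction. Usp18 was the only member past 2-fold, beside 1.9% of all measured genes that were as far down.

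The other measured antiviral genes, 6 of the 8 (75%), were within 1.5-fold, beside 85.6% of all measured genes. Isg15, the ubiquitin-like protein that Usp18 removes, gave 88.3 and 70.5 (log2 ratio -0.32). Ifit2, which binds foreign RNA, gave 265 and 303 (0.20), and the other probe set had the same sign (0.40). Oasl gave 69.5 and 66.3 (-0.068), close to the floor. Eif2ak2, the kinase PKR that stops translation on sensing double-stranded RNA, gave 507 and 472 (-0.11). Adar, which edits double-stranded RNA, gave 270 and 349 (0.37), but its other probe sets gave -0.089 and -0.14. Parp14, an ADP-ribosyltransferase, gave 285 and 240 (-0.25), and its second probe set gave 87.9 and 46.5. The guanylate-binding GTPase Gbp2, an interferon gamma target, gave 582 and 506 (-0.20). The ratios of these genes went both ways, with 4 of the 8 measured antiviral genes positive and 4 negative under every scaling tried.

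**Figure D2:**
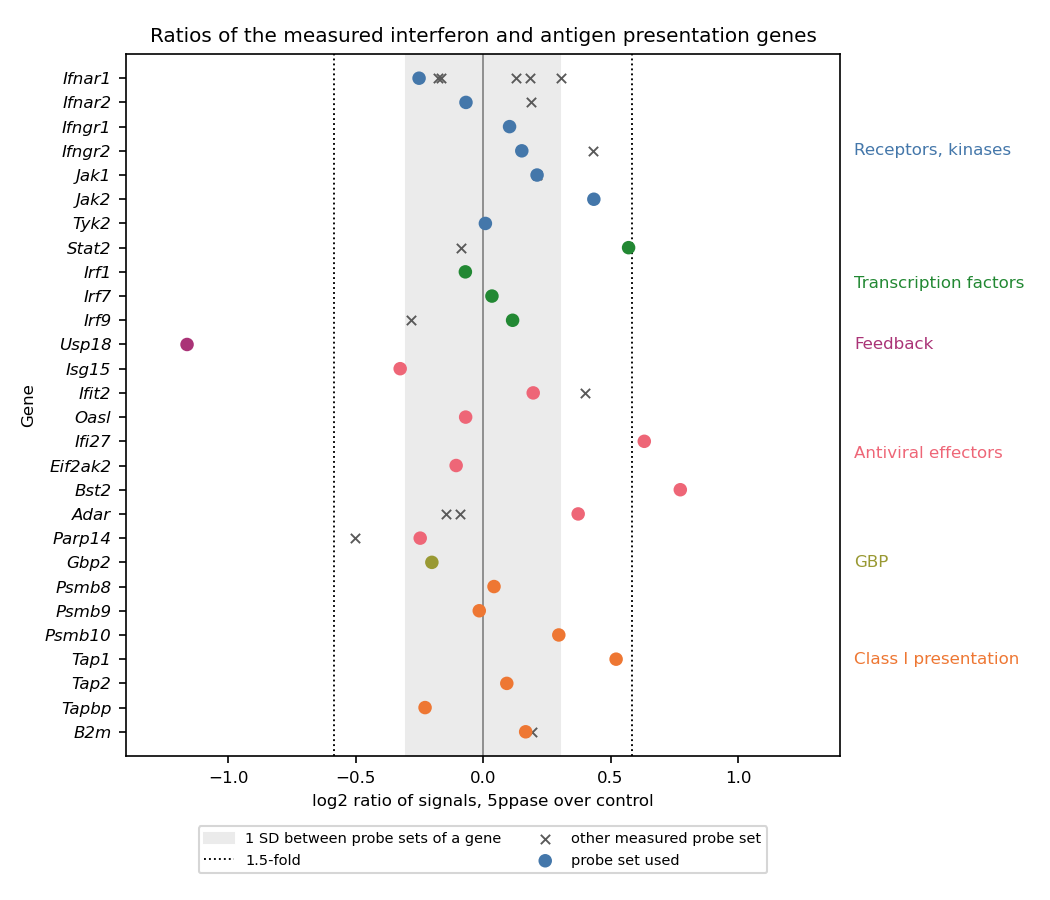
log2 ratio of 5ppase over control for the 28 measured genes; coloured points are the probe set used, crosses other measured probe sets of the same gene, the grey band 1 SD between probe sets (0.30) and dotted lines 1.5-fold. Usp18 lies at -1.16, Ifi27 at 0.63 and Bst2 at 0.77; crosses of Stat2, Adar, Irf9, Ifnar1 and Ifnar2 fall on the other side of 0 from their points.

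Class I presentation genes, which cut, carry and load peptides for display on most cells, were all measured and all within 1.5-fold. So were 85.6% of all measured genes. The immunoproteasome subunits, which replace constitutive subunits in cells exposed to interferon gamma, gave 336 and 346 for Psmb8 (log2 ratio 0.043), 446 and 442 for Psmb9 (-0.015) and 403 and 495 for Psmb10 (0.30). The peptide transporter subunit Tap1 gave 166 and 239 (0.52) and its partner Tap2 gave 141 and 150 (0.093). Tapbp, or tapasin, which bridges the transporter and the class I molecule, gave 242 and 206 (-0.23). B2m, the light chain of class I molecules, gave 22038 and 24747.5 (0.17), and 3571 and 4083 (0.19) at its second probe set. The median over these 7 genes was 0.093, with 5 positive and 2 negative ratios. Under quantile normalization or after loess there were 6 and 1, as Psmb9 turned positive. Over all measured genes 48.6% of ratios were positive.

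Tap1 and Psmb9 are transcribed away from each other, on the minus and the plus strand of chromosome 20 in GRCr8, with 457 bases between their annotated starts, and their promoter windows overlap by 44 bases. The ISRE match in the Tap1 stretch shown above lies between these starts. The log2 ratios differed by 0.54, beside a spread of 0.43 expected for the difference of 2 probe sets from the SD given above. The other Tap1 probe set stayed below the floor in both cultures (5.3 and 7.2), so its ratio rests on 1 probe set.

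Class II presentation is found mainly in professional antigen-presenting cells, and both listed genes were under the floor. Cd74, the invariant chain, gave 48.4 and 46.6, and Ciita, the factor that switches on class II genes, gave 39.0 and 34.8, with a second probe set at 21.9 and 18.8. The class II peptide-loading genes RT1-DMa (149 and 100, log2 ratio -0.57) and RT1-DMb (80.6 and 64.5, -0.32), picked out after their values were seen, had dim signals. Of the other class II genes looked up, RT1-Ba, RT1-Bb and RT1-Db1 were under the floor on both arrays. RT1-Da was above it in 5ppase alone (48.1 and 69.0). Of 19 microglial and macrophage markers on the array 3 were above the floor in control and 6 in 5ppase, with summed signals of 2892 and 4648. Most of that sum came from Tmem119 (1078 and 2273) and Cd14 (1428 and 1820), whereas Itgam (9.6 and 5.6) and Ptprc (4.4 and 34.5) were under the floor. Those above the floor of 62.0 in 5ppase alone were close to it, namely Aif1 (56.1 and 71.5), Cd68 (15.4 and 67.1) and Lyz2 (17.4 and 62.8). None of these markers was listed at 0, and their part in the ratios was not tested.

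Of 12 astrocyte markers 8 were above the floor on both arrays, with summed signals of 50678 in control and 33112 in 5ppase. Gfap was lower in 5ppase (17525 and 7408), whereas S100b (3483 and 3611) and Gja1 (7282 and 7656) were at like signals. Of the 9 measured 6 (66.7%) were at least 1.5-fold lower, beside 6.87% of all measured genes. In such bulk RNA, fewer cells of a type and less RNA per cell cannot be told apart. Fibroblast and meningeal markers, 6 of 8 above the floor on both arrays, summed to 112490 and 108373. That sum came mostly from Col1a1, Col1a2, Col3a1 and Fn1. Of the 6 measured 2 (33.3%) were at least 1.5-fold lower, Twist1 (1069 and 627) and Pdgfra (1018 and 644). Neuron markers, 3 of 8 above the floor on both arrays, summed to 5689 and 12725. Most of that difference came from Stmn2 (3766 and 11065), while Tubb3 gave 87.9 and 290.2 and Map2 was lower in 5ppase (1737 and 1210). Markers of lymphocytes, endothelial cells and oligodendrocytes had 1 gene each above the floor on both arrays and summed to 287 and 269, 245 and 389, and 1210 and 924. The part of these shifts in the members' ratios was not tested. Inpp5a, a rat 5-phosphatase gene, gave 994 and 1022, but the labels do not name the gene of the construct, so this checks nothing.

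The signal of a member bears on how far its ratio can be read. Of the 28 measured members 7 had a mean signal under 208 (Jak2, Usp18, Isg15, Oasl, Bst2, Tap1 and Tap2), and 2 of the 7 (28.6%) were past 1.5-fold. Among all measured genes that dim, 31.8% were. Of the 21 brighter members 1 (4.76%), Ifi27, was past 1.5-fold, beside 9.36% of the brighter genes. These shares rest on 2 genes and 1 gene, so they do not set the members apart from other genes of like signal.

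**Figure D3:**
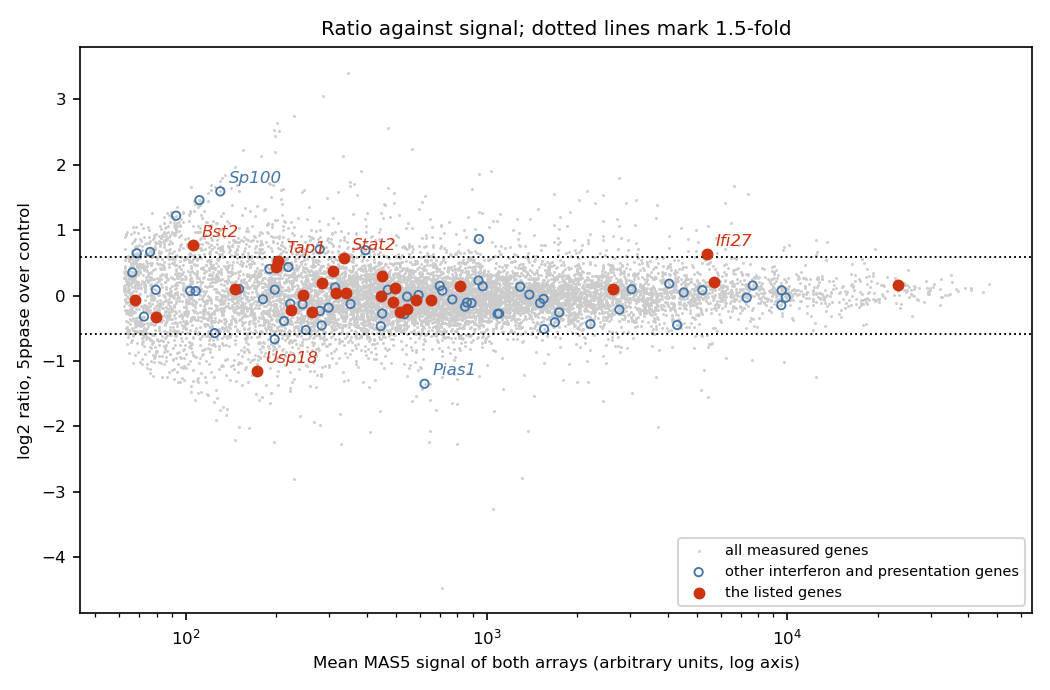
log2 ratio of 5ppase over control against the mean MAS5 signal of both arrays (log axis) for 10255 measured genes (grey), 28 listed genes (red) and 65 other interferon and presentation genes (blue circles). Ratios spread more widely at low signal, where Usp18 and Bst2 lie, and Ifi27 stands among bright genes.

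Beyond the listed genes, 130 other genes of the same pathways were examined, of which 98 had a probe set of their own and 65 were measured. Of these 65, 8 (12.3%) were at least 1.5-fold higher in 5ppase and 2 (3.08%) that much lower, beside 7.48% and 6.87% of all measured genes. Of the 8, 4 (Uba7, Plscr1, Gbp4 and Cd1d1) were above the floor on the 5ppase array alone, so their higher signal also decided that they were measured. The median log2 ratio of the 65 was -0.032. Of 9 listed interferons 3 had a probe set of their own, and all 3 were under the floor on both arrays, Ifng at 34.7 and 20.6, Ifnb1 at 4.3 and 5.2 and Ifnk at 1.8 and 2.3. The other 6 were not analysed here. In signalling, Nmi, which binds STAT proteins, gave 212 and 345 (0.71), and its other probe set had 0.15. Pias1, a SUMO ligase that restrains cytokine signalling, gave 893 and 350 (-1.35), and its other probe set gave 608 and 491 (-0.31), the same sign at a smaller size. The phosphatase Ptpn11 (3796 and 4304, 0.18) and Irf2bp2 (2972 and 2560, -0.22) were within 1.5-fold.

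None of the 8 measured sensing genes was past 1.5-fold, and 85.6% of all measured genes lay within it. The adaptor Myd88 gave 927 and 855 (log2 ratio -0.12) and the kinase Tbk1, which activates Irf3, gave 892 and 828 (-0.11). Of 24 other effectors 6 (25%) were at least 1.5-fold higher and 1 (4.17%) that much lower, beside 7.48% and 6.87% of all measured genes. Of the 24, 10 had a mean signal under 208, a class in which 31.8% of all measured genes were past 1.5-fold in either direction. Sp100, Uba7, Plscr1, Gbp4 and Ifitm1, all past 1.5-fold, were among these 10. Lgals3bp and Tor3a were among the brighter effectors, beside 9.36% of all brighter measured genes past 1.5-fold. Lgals3bp, a secreted galectin-binding glycoprotein, gave 669 and 1218 (0.86), the nuclear body protein Sp100 gave 64.8 and 195.4 (1.59) and the ATPase Tor3a gave 302 and 489 (0.69). For a further 3 the control signal was under the floor, so that only a bound can be given: Uba7, the enzyme that activates Isg15 (41.0 and 144.5, at least 2.33-fold higher), the scramblase Plscr1 (53.6 and 98.4, at least 1.59-fold) and the GTPase Gbp4 (40.3 and 97.0, at least 1.56-fold). Ifitm1, which blocks virus entry, was lower (242 and 152, -0.67). Its relatives Ifitm2 (4452 and 4599, 0.047) and Ifitm3 (10003 and 9785, -0.032) were at like signals.

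Of 21 other antigen presentation genes 20 (95.2%) lay within 1.5-fold, beside 85.6% of all measured genes. The exception was Cd1d1, which presents lipids, at 51.4 and 170.4, at least 2.75-fold higher. The loading chaperones Calr (9326 and 9854, log2 ratio 0.079) and Pdia3 (10045 and 9069, -0.15) were within 1.5-fold. The median of this group was -0.15, with 7 positive and 14 negative ratios under every scaling tried. The 7 are 33.3% of the group, beside 48.6% of all measured genes with a positive ratio. Of the class I RT1 genes, grouped after their values were seen, 5 were measured. RT1-CE16 gave 1900 and 1588 (-0.26), RT1-CE10 gave 1206 and 995 (-0.28) and RT1-M3-1 gave 1827 and 1280 (-0.51). RT1-CE5 gave 302 and 256 (-0.24), but its other 3 measured probe sets were positive (0.42, 0.64 and 0.46). RT1-S3 gave 105 and 110.4 (0.068), with 0.32, -0.63 and -0.31 at its other probe sets. The class I RT1 genes therefore show no common direction once every probe set is counted. The probe sets used for RT1-CE16, RT1-CE10 and RT1-CE5 are of the _x_at kind and can read related class I genes, so the values may be shared among them.

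Promoter matches were also counted across the array. Of 238 measured genes whose window matched the ISRE core 8.82% were at least 1.5-fold higher and 7.98% that much lower in 5ppase, with a median log2 ratio of 0.0089. Of 8373 measured genes with a window and no match, 7.15% and 6.51% were, with a median of -0.010. The shares with the match rest on 21 and 19 genes and were slightly larger than, but near, those without it. The sets were not matched for signal, and the difference was not tested. For genes with a GAS match the shares were 6.92% and 5.83% over 549 genes, and without one 7.22% and 6.60% over 8062. Within the members the 12 measured genes with an ISRE match ran from -0.25 (Parp14) to 0.77 (Bst2), with a median of 0.068, and the 10 with a window and no match had a median of 0.045. The members that hold the element thus lay on both sides of 0. Those with a negative ratio were Eif2ak2, Parp14, Gbp2 and Tapbp, all within 1.5-fold.

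**Figure D4:**
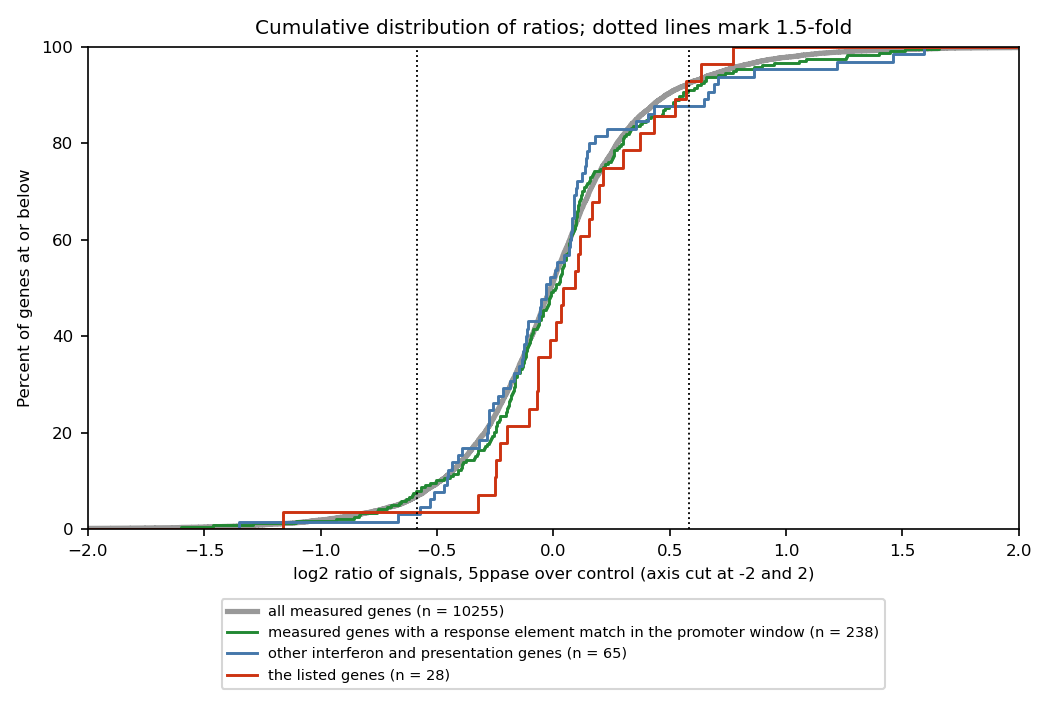
Percent of genes at or below each log2 ratio of 5ppase over control, for all 10255 measured genes (grey), 238 with an ISRE match in the promoter window (green), 65 other pathway genes (blue) and 28 listed genes (red); dotted lines mark 1.5-fold. The red curve crosses 50% at 0.068 against -0.012 for all genes.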

How the data were processed

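Values came from 1 control array and 1 5ppase array, grouped by their titles. Intensities as deposited are linear, 1 colour, 1 value for each probe set; the submitters' processing notes name MAS5 (version and settings not given in the sources used here), and both arrays have a trimmed mean near 500.2. RNA was extracted with RNeasy and labelled with biotin per the labels' protocols. In Python 3.11.15 both arrays were brought to one trimmed mean (2% off each end), signals under the floor were raised to it, and log2 ratios were taken, which understates ratios of dim genes. Of 31099 probe sets 20832 carried 1 gene symbol, 436 several and 9831 none in the platform table, which can be old; 0 symbols changed when updated through a RefSeq table. No sample column was left unused (0). With 1 array per group there was no test, and the number of arrays limits the precision. The procedure was tested on simulated data, with changes placed and scored only in genes well above the floor. Dim genes such as Usp18 and Bst2 lie outside that range, so the simulation does not bear on them. The changes placed were 2-fold, larger than that of Ifi27, so it does not bear on Ifi27 either. Members, lists and the 1.5-fold threshold were chosen with earlier results of these data known. Every member above the floor on an array was named. Of the other pathway genes, those past 1.5-fold and the 2 brightest measured of each group were named. For the interferons, which had none measured, the 3 with a probe set were named. Alternatives were other scalings, floors, a pseudocount, other probe set choices and other fold thresholds.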

Additional observations from a re-analysis of the deposited data

How the results depend on the processing

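Usp18, Ifi27 and Bst2 stayed past 1.5-fold in the same direction without rescaling, under a common median, under quantile normalization and with a loess trend (span 0.3) removed. Each has 1 probe set, ending in _at alone, so the mean of probe sets and the removal of the _x_at and _s_at kinds could not change their values. The counts of members higher and lower in 5ppase, 2 and 1 as reported, were 3 and 1 under quantile normalization and after loess, with Stat2 added. They were 4 and 2 over 35 members with the floor at the 25th percentile, where Ifit3, Mx2 and Ifih1 entered, and 5 and 2 over 37 with a pseudocount of 6.4 and no floor, where Rsad2 entered as well. Of all genes measured in these settings 11.2% and 10%, and 14.1% and 12.6%, were past the same fold. A floor at the 60th percentile gave 1 (Ifi27) and 0 over 21 members, since Usp18 and Bst2 were no longer measured. Second brightest probe sets gave 0 and 0 over the 10 members in which one was measured, none of which was past 1.5-fold at its first. A 2-fold threshold gave 0 and 1, and a lower one, a log2 ratio of 0.32, gave 6 and 2, beside 2.14% and 1.9%, and 16.9% and 18.4%, of all measured genes. The members' median ranged from 0.038 under a common median to 0.16 with second probe sets, whose 10 genes had 0.16 at their first. Of the 28 single ratios, those of Stat2 (0.24) and Adar (0.047) moved by more than 0.30 with the mean of probe sets. With second probe sets 4 of 10 did, and 5 of 10 changed sign. No paired analysis was possible because each group has 1 array, so no replicate could be left out either. Dim signals limit what can be read for the 9 members that were not measured.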
